A study of Mus musculus with 3 samples.

Results

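Keratin genes were examined in CT26, a mouse colon carcinoma line, with and without a vector for the miR-17~92 microRNA cluster. The members were all genes whose single symbol in the annotation of the array platform is Krt followed by a digit, without the keratin-associated Krtap, Krtcap and Krtdap genes. This gave 52 genes of 19938 measured, each read by 1 probe set. The rule uses gene symbols and no measured value, and the keratins were taken up as a set with earlier results of these data known. Ctrl stands for miR-Ctrl, the line with a control microRNA vector, Med for miR-17~92Med, with a medium cluster level, and Hi for miR-17~92Hi, with a high one. All lines were transfected with a vector of the same PIG series, then selected by the puromycin resistance and GFP it carries, and each was expanded from a single cell, in medium with 10% fetal bovine serum. The design text gives 3 subclones per group and the table has 1 column per group. The sources used here do not say if a column holds 1 subclone, a pool or an average. Each group therefore counted as 1 sample, with no replicate error and no test. "Higher" and "lower" describe these columns alone.

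Keratins form the intermediate filaments of epithelial cells. A filament is built from pairs of 1 type I (acidic) and 1 type II (basic) keratin, and a keratin without a partner is usually degraded. Krt8 with Krt18 is the founding pair of simple epithelia, Krt19 and Krt20 are further type I keratins of the gut lining, and Krt7 is a type II keratin of ducts. Stratified epithelia use Krt5 with Krt14, differentiating epidermis uses Krt1 with Krt10, and wounded skin uses Krt6a with Krt16 and Krt17. Other members build the inner root sheath and the shaft of hairs.

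The Ctrl column stood apart from both miR-17~92 columns over the whole array, which bears on every difference from Ctrl. Pearson's r over 35556 probe sets was 0.787 for Med and Ctrl, 0.795 for Hi and Ctrl and 0.992 for Hi and Med (probe sets are not independent replicates). The median probe set was at 6.95 (Ctrl), 6.65 (Med) and 6.66 (Hi) on the log2 scale. The part of that shift in the keratin differences was not tested. Hi against Med is the comparison that does not use Ctrl. Levels of different probe sets are not on one scale, so each gene is compared with itself across columns. As a coarse gauge of signal without expression, the 95th percentile of 1196 olfactory and vomeronasal receptor genes was taken in each column. It was 6.87 in Ctrl, 6.18 in Med and 6.20 in Hi on the log2 scale, and is called the receptor level below.

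Markers of colon epithelium lay on both sides of the receptor level. Of 25 epithelial genes, 16 (Ctrl), 15 (Med) and 16 (Hi) were above it. Of 16 intestinal genes, 7 (Ctrl), 5 (Med) and 5 (Hi) were, beside 60.6% (Ctrl), 63.9% (Med) and 63.9% (Hi) of all genes. The epithelial adhesion gene Epcam was at 6.15 (Ctrl), 5.14 (Med) and 5.14 (Hi), under the receptor level throughout. The E-cadherin gene Cdh1 was at 6.63 (Ctrl), 6.26 (Med) and 6.26 (Hi), under that level in Ctrl and less than 0.1 above it in Med and Hi. The intestinal genes Cdx2 (Ctrl 6.79, Med 5.77, Hi 5.89), Vil1 (Ctrl 6.34, Med 5.93, Hi 5.93), Muc13 (Ctrl 5.34, Med 4.98, Hi 4.98) and Cdh17 (Ctrl 5.55, Med 5.06, Hi 5.06) were under it too. The regulator Cdx1 (Ctrl 8.95, Med 7.24, Hi 7.45) and the galectin Lgals4 (Ctrl 7.26, Med 6.96, Hi 6.96) lay above it, as did Tff3, Gpa33 and Hnf4a in every column. Vimentin (Vim), the filament protein of mesenchymal cells, was at 11.94 (Ctrl), 13.89 (Med) and 13.63 (Hi).

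Among the simple epithelial keratins, Krt18 was far higher in Med and Hi than in Ctrl, and its partner Krt8 was lower. Krt18 (Entrez gene 16668, chromosome 15) was at 7.97 (Ctrl), 11.41 (Med) and 12.28 (Hi). It was higher by 3.44 in Med than in Ctrl and by 4.31 in Hi than in Ctrl, or 10.9-fold and 19.9-fold. Its partner Krt8 (gene 16691, chromosome 15) was at 8.92 (Ctrl), 7.28 (Med) and 7.32 (Hi), differences of -1.64 and -1.61 from Ctrl. The members of the pair thus lay on opposite sides of Ctrl, and both were above the receptor level in every column. In bulk RNA, fewer cells that hold a transcript and less of it per cell cannot be told apart. Krt7 (gene 110310), the other type II keratin of simple epithelia, was at 7.49 (Ctrl), 6.39 (Med) and 6.39 (Hi). Its difference from Ctrl was -1.10 in each miR-17~92 column, and -0.80 in Med and -0.81 in Hi with columns centred on their medians, under 2-fold. With quantile normalization it was -1.01 in Med and -1.04 in Hi, so whether it passes 2-fold depends on the scaling. Krt19 (gene 16669, chromosome 11) was at 7.50 (Ctrl), 7.50 (Med) and 7.87 (Hi). Its difference from Ctrl in Med was 0 as deposited, 0.30 with columns centred on their medians and -0.06 with quantile normalization, so it has no settled direction there. Krt20, found in differentiated gut cells, was at 6.64 (Ctrl), 5.78 (Med) and 5.71 (Hi), under the receptor level in all columns.

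**Figure D1:**
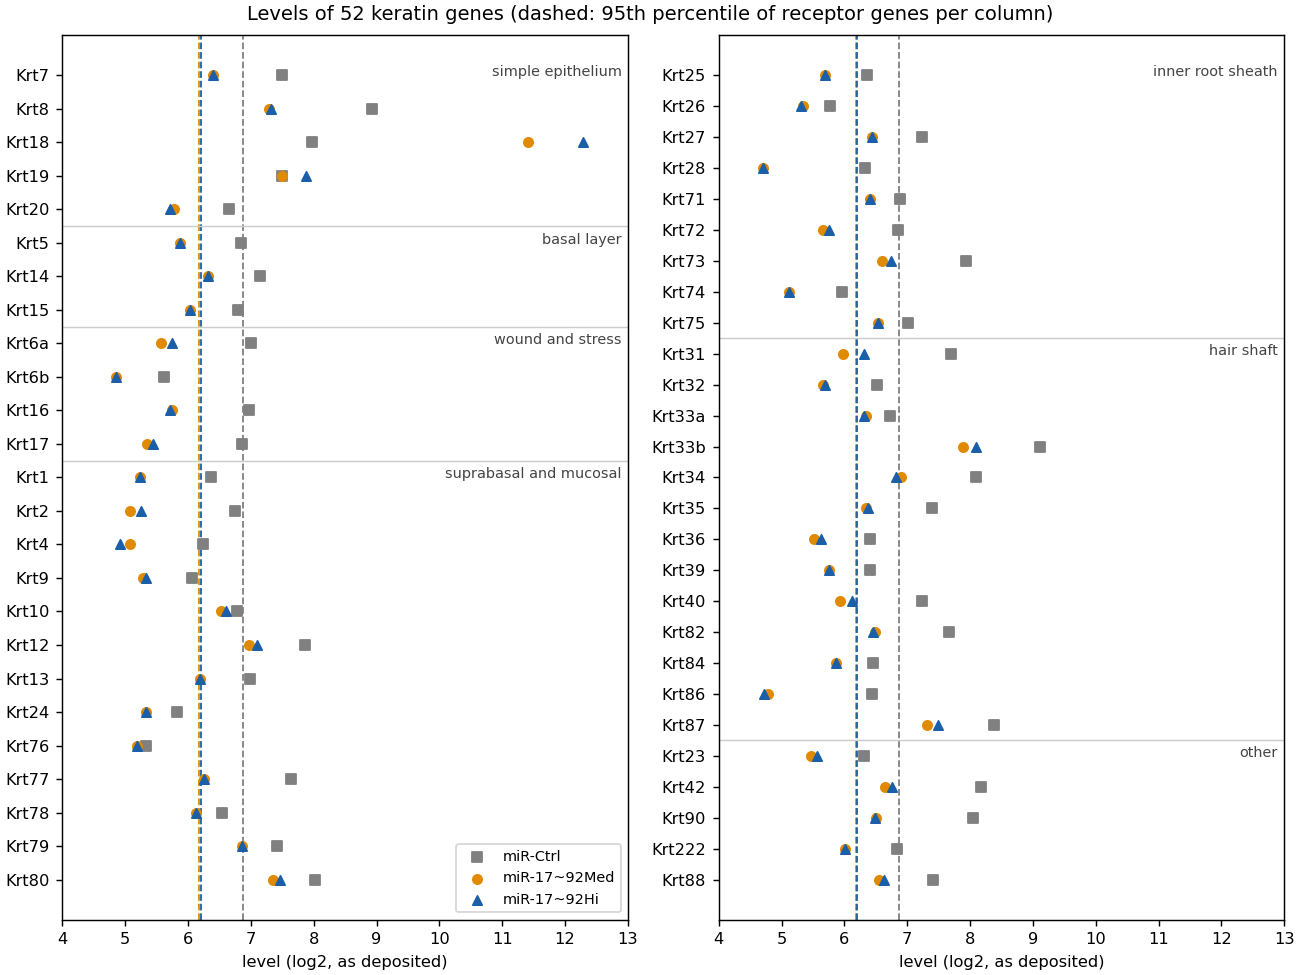
Deposited log2 level (horizontal axis) of each of the 52 keratin genes in miR-Ctrl (squares), miR-17~92Med (circles) and miR-17~92Hi (triangles), 1 column per group and no error. Dashed lines mark the 95th percentile of receptor genes in the column of the same colour, and genes are grouped by the tissue they are known from; Krt18 is the gene far to the right in Med (11.41) and Hi (12.28).

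Krt8 and Krt18 are neighbours in the type II keratin cluster, and Krt7 lies in the same cluster. Of the 52 members, 27 lie on chromosome 11, the site of the type I cluster, and 25 on chromosome 15. Krt18 is the 1 type I gene among those 25. The promoter stretches of these 3 genes are shown because they carry the contrast between Krt18 and the type II keratins of simple epithelia. Each runs from 250 bases before to 30 bases after the gene start in RefSeq's GRCm38.p6 annotation of the mouse genome, on the strand of the gene. Capitals mark matches to 3 motifs. The first is TATAA, the core of the box of that name, searched on the gene strand only. The second is GGGCGG, the box bound by Sp1, searched on both strands. The third is TGANTCA, the AP-1 motif, searched on both strands. No 2 of these motifs overlap in the stretches shown. Krt18 lies at chr15:102027966-102028245 (plus strand), Krt8 at chr15:102004313-102004592 (minus strand) and Krt7 at chr15:101412153-101412432 (plus strand).
Krt18: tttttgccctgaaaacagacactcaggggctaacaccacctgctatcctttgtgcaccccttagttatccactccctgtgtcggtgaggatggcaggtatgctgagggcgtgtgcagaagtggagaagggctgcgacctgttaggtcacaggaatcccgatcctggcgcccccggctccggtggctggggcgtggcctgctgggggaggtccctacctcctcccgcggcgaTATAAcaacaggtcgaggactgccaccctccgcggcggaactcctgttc
Krt8: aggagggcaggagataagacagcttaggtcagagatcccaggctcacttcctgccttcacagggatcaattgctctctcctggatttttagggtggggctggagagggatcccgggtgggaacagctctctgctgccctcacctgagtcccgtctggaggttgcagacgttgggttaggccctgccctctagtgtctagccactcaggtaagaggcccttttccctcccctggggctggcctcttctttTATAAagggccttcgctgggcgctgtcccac
Krt7: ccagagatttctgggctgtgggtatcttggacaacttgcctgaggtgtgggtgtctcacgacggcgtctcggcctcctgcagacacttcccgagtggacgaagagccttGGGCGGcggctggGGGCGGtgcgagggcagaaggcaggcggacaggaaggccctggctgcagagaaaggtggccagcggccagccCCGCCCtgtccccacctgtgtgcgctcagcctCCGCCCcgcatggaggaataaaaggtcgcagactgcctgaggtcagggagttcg

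Krt18 and Krt8, which differed from Ctrl in opposite directions, both held TATAA in this window and neither held GGGCGG. In Krt18 the match began 19 bases before the annotated start and in Krt8 1 base before it. Krt7 held GGGCGG at 4 places and no TATAA, and none of the windows held TGANTCA. Of the 52 keratins, 36 had a promoter in the RefSeq table, and 25 of these held TATAA in at least 1 listed promoter. The share among all 32851 promoters was 17.0%. GGGCGG was found in 2 of the 36 keratins and in 34.7% of all promoters, and TGANTCA in 1 of 36 and in 7.46% of all promoters. These matches are descriptions of letters and not evidence of a bound factor.

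In the order of genes along chromosome 15, the difference from Ctrl had opposite signs at the neighbours Krt8 and Krt18. The type II members from Krt80 to Krt8 were all lower in Med and Hi than in Ctrl as deposited, and all but Krt76 with centred columns or quantile normalization. The neighbours after Krt18 were looked at once its values were known. The translation initiation factor gene Eif4b, the next measured gene, was at 8.20 (Ctrl), 12.08 (Med) and 12.08 (Hi). The focal adhesion gene Tns2 followed at 7.90 (Ctrl), 9.18 (Med) and 9.46 (Hi), and Spryd3 at 8.48 (Ctrl), 8.15 (Med) and 8.15 (Hi). On the far side of the cluster, Smim41 and Atg101 differed from Ctrl by less than 0.2.

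**Figure D2:**
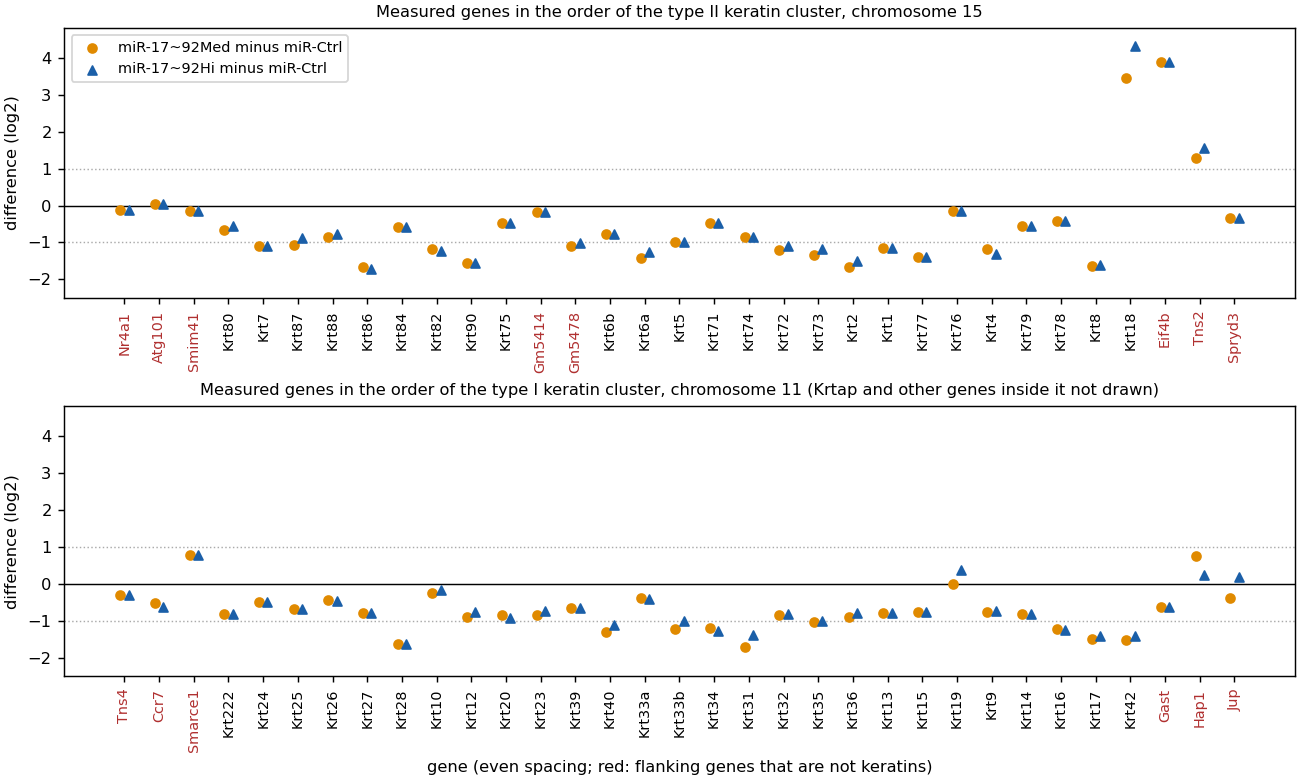
Log2 difference from miR-Ctrl (vertical axis) of Med (circles) and Hi (triangles) for measured genes in RefSeq order along the keratin clusters of chromosomes 15 (top) and 11 (bottom), evenly spaced; flanking genes that are not keratins are in red and dotted lines mark 2-fold. Krt18 (3.44 and 4.31) and its neighbours Eif4b and Tns2 stand above 2-fold in both columns, and no other keratin does.

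Across the family, keratins were lower in Med and Hi than in Ctrl, with Krt18 and Krt19 outside that pattern. Lower in both columns were 50 of 52 members, or 48 with columns centred on their medians, where Krt10 and Krt76 were no longer lower, and of all genes 56.4% were lower in Med and 56.1% in Hi. In Med 22 keratins were at least 2-fold lower than in Ctrl and 1 (Krt18) 2-fold higher, where 16.3% and 18.3% of all genes were. In Hi 21 were 2-fold lower and 1 (Krt18) higher, where 15.4% and 17.5% of all genes were. The 21 keratins 2-fold lower in Hi were also 2-fold lower in Med, and both counts rest on the same Ctrl column. The median keratin difference was -0.86 in Med and -0.83 in Hi, beside -0.20 and -0.19 for all genes.

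Groups of genes that are not expected in colon cells differed from Ctrl in the same direction. The 44 Krtap genes, which encode the matrix around hair keratins, had medians of -0.79 in Med and -0.75 in Hi. Of them, 13 were 2-fold lower in Med and 11 in Hi, beside 16.3% and 15.4% of all genes, and none was 2-fold higher. Receptor genes had medians of -0.39 and -0.38, and 82 and 77 of 1196 were 2-fold lower. With columns centred on their medians, a shift of 0.30 in Med and 0.29 in Hi for every gene, 2-fold lower keratins numbered 12 in Med and 10 in Hi. With quantile normalization they numbered 18 and 16. The split of all genes at 2-fold was 3655 higher to 3256 lower in Med as deposited and 4427 to 1362 with centred columns. In Hi it was 3485 to 3077 and 4253 to 1201.

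**Figure D3:**
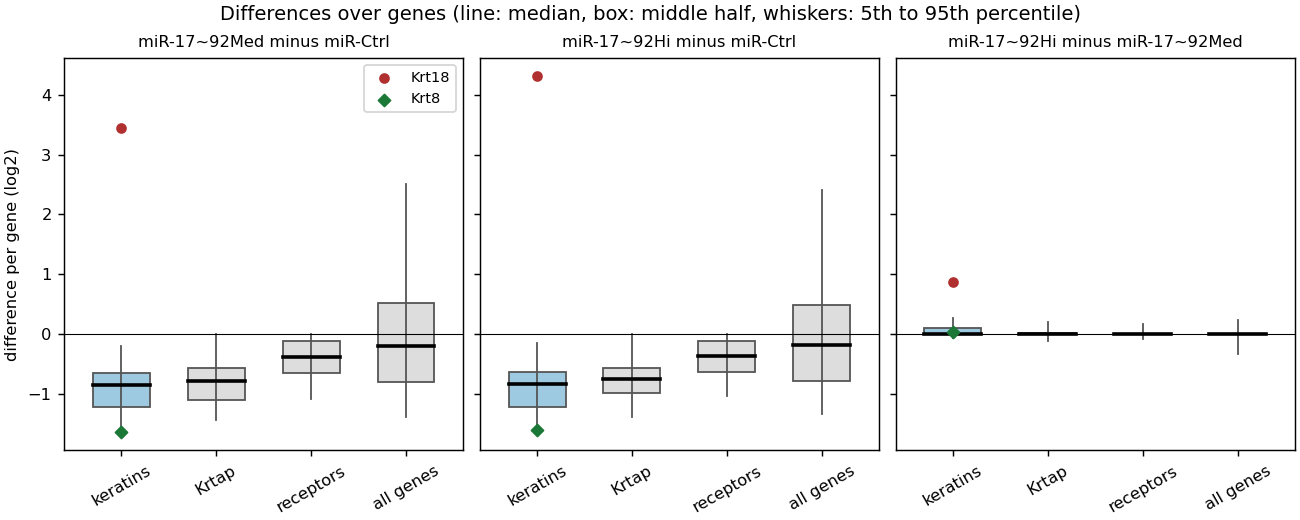
Log2 difference per gene (vertical axis) in the 3 comparisons for keratins, Krtap genes, receptor genes and all genes, as median line, box spanning the quartiles and whiskers from the 5th to the 95th percentile over genes; red circles are Krt18 and green diamonds Krt8. Against miR-Ctrl the keratin and Krtap medians lie between -0.75 and -0.86 and those of receptors near -0.4, while all medians of Hi minus Med are 0.

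Above the receptor level were 26 of 52 keratins in Ctrl, 24 in Med and 24 in Hi, beside 60.6% of all genes in Ctrl, 63.9% in Med and 63.9% in Hi. Above it in every column were 21 members. Of the 44 Krtap genes, 18 (Ctrl), 18 (Med) and 16 (Hi) were above the receptor level, so lying above it does not by itself show expression. Krt13, a mucosal keratin, held 6.20 in both Med and Hi, just above the receptor level in Med and just below it in Hi. The level of Krtap genes was a stricter gauge, chosen after the data were seen. Their 95th percentile was 8.90 (Ctrl), 8.05 (Med) and 8.12 (Hi). Krt18 was the 1 keratin above it in Med and in Hi, where 34.7% and 32.9% of all genes were above it. Krt33b, a hair shaft keratin, was next to it in Hi, at 8.10. In Ctrl the 2 keratins above it were Krt33b (9.11) and Krt8 (8.92), beside 9.21% of all genes.

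Keratins of the basal layer gave the same values in Med and Hi, as did 51.1% of all genes and 69.1% of receptor genes. Krt5 was at 6.85 in Ctrl and 5.86 in both Med and Hi. Its partner Krt14 was at 7.14 in Ctrl and 6.32 in both, and Krt15, another basal type I keratin, at 6.79 in Ctrl and 6.03 in both. None was 2-fold apart from Ctrl, and Krt14 was above the receptor level in every column.

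Of the wound keratins, 3 of 4 were at least 2-fold lower in Med and Hi than in Ctrl as deposited, where 16.3% of all genes were in Med and 15.4% in Hi. With centred columns and with quantile normalization 2 were in Med (Krt6a and Krt17) and 1 in Hi (Krt17). The shares of all genes were 6.83% and 6.02% with centred columns and 15.5% and 14.7% with quantile normalization. Krt6a was at 7.00 (Ctrl), 5.57 (Med) and 5.74 (Hi), and Krt16 at 6.97 (Ctrl), 5.75 (Med) and 5.71 (Hi). Krt17 was at 6.86 (Ctrl), 5.35 (Med) and 5.43 (Hi), and Krt6b at 5.62 (Ctrl), 4.86 (Med) and 4.86 (Hi). All 4 lay under the receptor level in Med and Hi, and Krt17 and Krt6b also in Ctrl. Krt6a and Krt6b are close paralogs, as are Krt33a and Krt33b, and how well their probe sets separate them was not tested.

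Of the 13 suprabasal and mucosal keratins, 4 were 2-fold lower in Med and in Hi than in Ctrl and none higher. Of all genes, 16.3% were 2-fold lower in Med and 15.4% in Hi. With centred columns 2 were 2-fold lower in Med (Krt2 and Krt77) and 3 in Hi (also Krt4), beside 6.83% and 6.02% of all genes. With quantile normalization 3 were in each, beside 15.5% and 14.7% of all genes. The epidermal Krt1 was at 6.37 (Ctrl), 5.23 (Med) and 5.23 (Hi), and the epidermal Krt2 at 6.74 (Ctrl), 5.07 (Med) and 5.24 (Hi). Both are type II keratins of differentiating epidermal cells. Krt77, another type II keratin, was at 7.64 (Ctrl), 6.26 (Med) and 6.26 (Hi). The oesophageal Krt4, the usual partner of Krt13, was at 6.24 (Ctrl), 5.08 (Med) and 4.92 (Hi). Krt1, Krt2 and Krt4 were under the receptor level in every column, and Krt77 was above it in every column. Krt10, the partner of Krt1, was closer to Ctrl, at 6.77 (Ctrl), 6.52 (Med) and 6.60 (Hi). Under 2-fold were also the corneal Krt12 (Ctrl 7.86, Med 6.96, Hi 7.09), Krt13 (6.98 in Ctrl), Krt79 (Ctrl 7.42, Med 6.86, Hi 6.86) and Krt80 (Ctrl 8.02, Med 7.35, Hi 7.46).

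The hair keratins gave most of the remaining 2-fold differences from Ctrl. Of 13 measured hair shaft keratins, 8 were 2-fold lower in Med than in Ctrl and 7 in Hi, and of 9 inner root sheath keratins, 3 in each. Of all genes, 16.3% were 2-fold lower in Med and 15.4% in Hi. With centred columns, 3 shaft keratins were 2-fold lower in Med (Krt31, Krt40 and Krt86) and 2 in Hi (Krt31 and Krt86), where 6.83% and 6.02% of all genes were. So were 2 root sheath keratins in Med (Krt28 and Krt73) and 1 in Hi (Krt28). With quantile normalization 7 shaft keratins were 2-fold lower in Med and 6 in Hi, and 2 root sheath keratins in each, beside 15.5% and 14.7% of all genes. The shaft keratin Krt31 was at 7.70 (Ctrl), 5.98 (Med) and 6.31 (Hi). Its close relative Krt33b was at 9.11 (Ctrl), 7.88 (Med) and 8.10 (Hi). Krt34, also type I, was at 8.10 (Ctrl), 6.90 (Med) and 6.82 (Hi). These 3 were 2-fold lower than Ctrl in both Med and Hi. Krt86 was at 6.44 (Ctrl), 4.78 (Med) and 4.72 (Hi), and Krt82 at 7.67 (Ctrl), 6.48 (Med) and 6.45 (Hi). Both are type II keratins of the shaft and also 2-fold lower. The type I Krt35 was at 7.39 (Ctrl), 6.34 (Med) and 6.38 (Hi), and the type I Krt40 at 7.23 (Ctrl), 5.93 (Med) and 6.12 (Hi). Krt87 (Ctrl 8.38, Med 7.31, Hi 7.49) was 2-fold lower in Med and not in Hi, a difference between both columns of 0.19. Krt33a (Ctrl 6.73, Med 6.34, Hi 6.32) was under 2-fold. In the root sheath, Krt28 (Ctrl 6.34, Med 4.70, Hi 4.70), Krt72 (Ctrl 6.86, Med 5.66, Hi 5.75) and Krt73 (Ctrl 7.93, Med 6.60, Hi 6.74) were 2-fold lower. Krt27 (Ctrl 7.23, Med 6.44, Hi 6.44), Krt71 (Ctrl 6.88, Med 6.41, Hi 6.41) and the companion layer keratin Krt75 (Ctrl 7.02, Med 6.54, Hi 6.54) were not. Krt28, Krt72 and Krt86 were under the receptor level in every column. Of the members with no tissue group, Krt42 (Ctrl 8.17, Med 6.65, Hi 6.76) and Krt90 (Ctrl 8.05, Med 6.50, Hi 6.49) were 2-fold lower and Krt88 (Ctrl 7.41, Med 6.56, Hi 6.63) was not. A colon line is not known to use hair keratins.

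By type, the 24 type II keratins were all lower in Med and Hi than in Ctrl, other than Krt76 once columns were centred. As deposited, their medians were -1.08 in Med and -1.04 in Hi. Of them, 13 and 12 were 2-fold lower, where 16.3% and 15.4% of all genes were. The 27 type I keratins had medians of -0.84 and -0.78, with 9 2-fold lower in each column. Krt18 was 2-fold higher in each, where 18.3% and 17.5% of all genes were. These counts by type are for deposited values. With centred columns, 2-fold lower keratins of any type numbered 12 in Med and 10 in Hi. The difference between the types was not tested, since members are not replicates.

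Hi against Med, the comparison without Ctrl, showed small differences for most keratins, with Krt18 furthest apart. Krt18 was at 12.28 in Hi and 11.41 in Med, higher by 0.87 or 1.83-fold. Of the 19938 genes, 96 (0.481%) were as far or further higher in Hi. No keratin was 2-fold apart, and of all genes 0.918% were. Krt19 was next, at 7.87 in Hi and 7.50 in Med (0.38), followed by Krt31 (0.33) and Krt33b (0.21). The remaining 48 keratins differed by no more than 0.2 in either direction. Krt8 differed by 0.03, and Krt7 had the same value in both columns. Identical values in Hi and Med were held by 21 keratins, beside 51.1% of all genes. In Hi 22 keratins were higher and 9 lower than in Med, where 25.3% and 23.6% of all genes were. At a 1.5-fold difference Krt18 was the 1 keratin counted.

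**Figure D4:**
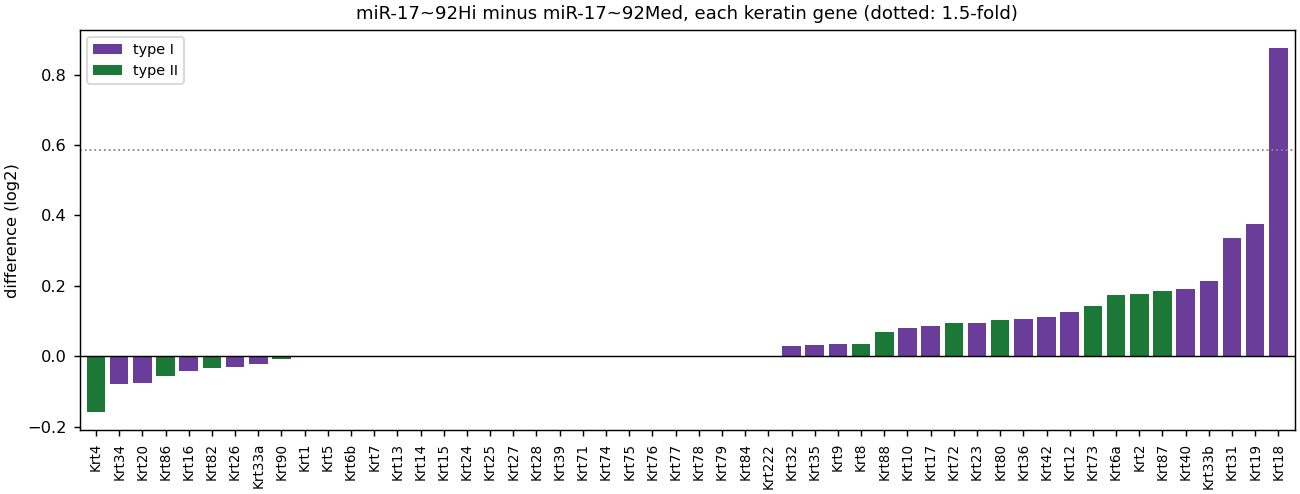
Log2 difference of miR-17~92Hi minus miR-17~92Med (vertical axis) for each keratin gene, in order of size, with type I genes in purple and type II genes in green; genes with identical values have no bar. Krt18 (0.87) is the 1 gene past the dotted 1.5-fold line, and the 4 genes above 0.2 are all type I.

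The graded design places Med between Ctrl and Hi, and the levels of Krt18 rose in that order. So did those of the nearby Tns2, at 7.90 (Ctrl), 9.18 (Med) and 9.46 (Hi). The 9 keratins lower in Hi than in Med fell in that order, with 0.2 or less between Med and Hi. With 1 column per group, a relation to the cluster level was not tested. The step of Krt18 from Ctrl was 3.44 in Med, and the further step in Hi was 0.87. No other member was 2-fold higher than Ctrl in either column. Across the 52 keratins the levels of Hi correlated with those of Ctrl at r = 0.691, and at 0.859 without Krt18, where the points share their arrays and normalization.

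Genes whose products hold keratin filaments at junctions were given as a list of 21 desmosome, plakin and hemidesmosome genes. In both Med and Hi, 5 were 2-fold higher and 2 lower than in Ctrl, where 18.3% and 16.3% of all genes were in Med and 17.5% and 15.4% in Hi. With centred columns 7 were 2-fold higher in Med and 6 in Hi, where 22.2% and 21.3% of all genes were, and 0 were 2-fold lower. With quantile normalization the counts were again 5 and 2 in both. The list medians of -0.14 in Med and 0 in Hi became 0.16 and 0.29 with centred columns and -0.32 and -0.31 with quantile normalization, so the list has no settled direction. The linker Dst was at 7.82 (Ctrl), 10.87 (Med) and 10.76 (Hi), and plectin (Plec) at 7.69 (Ctrl), 9.69 (Med) and 9.71 (Hi). Periplakin (Ppl) was at 7.47 (Ctrl), 9.12 (Med) and 9.60 (Hi), and the integrin Itga6 of hemidesmosomes at 8.30 (Ctrl), 11.21 (Med) and 10.25 (Hi). Its partner Itgb4 was at 9.13 (Ctrl), 9.80 (Med) and 9.60 (Hi), under 2-fold. Between Hi and Med none of the 21 was 2-fold apart. Plakoglobin (Jup) was at 7.61 in Hi and 7.04 in Med, and periplakin at 9.60 in Hi and 9.12 in Med, both higher in Hi. Itga6 was lower in Hi by 0.96. Desmoplakin (Dsp), another linker, was at 7.79 (Ctrl), 9.58 (Med) and 9.54 (Hi). The 2 members 2-fold lower as deposited, and not with centred columns, were envoplakin (Evpl) and plakophilin Pkp1. Evpl was at 8.17 (Ctrl), 6.90 (Med) and 6.98 (Hi), and Pkp1 at 8.16 (Ctrl), 6.98 (Med) and 6.98 (Hi). Dsp, Evpl and Pkp1 were named after their values were seen, as were the desmosomal cadherin genes Dsg2, Dsg3, Dsc2 and Dsc3. These cadherin genes lay under the receptor level in every column, and none was higher in Med or Hi than in Ctrl.

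Of 16 other intermediate filament genes, vimentin was the 1 that was 2-fold higher than Ctrl in Med and in Hi as deposited, and none was with quantile normalization. In Med 3 were 2-fold lower and in Hi 2, or 18.8% and 12.5%, beside 16.3% and 15.4% of all genes, and none was with centred columns. The nuclear lamin Lmna held 9.93 in all columns, and Lmnb1 was at 8.78 (Ctrl), 8.14 (Med) and 8.14 (Hi). The neurofilament gene Nefh was at 8.20 (Ctrl), 6.95 (Med) and 7.03 (Hi), 2-fold lower in both columns. The lens filament gene Bfsp1 was at 7.62 (Ctrl), 6.56 (Med) and 6.64 (Hi), 2-fold lower in Med and not in Hi. Sync, a muscle filament gene, was at 8.02 (Ctrl), 7.80 (Med) and 8.11 (Hi). Vimentin was at 13.63 in Hi and 13.89 in Med, a difference of -0.26, whereas that of Krt18 was 0.87.

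Epithelial and mesenchymal genes differed from Ctrl in both directions. Of 25 epithelial genes, 3 were 2-fold higher and 9 lower in Med than in Ctrl, and 3 higher and 8 lower in Hi. Of all genes, the 2-fold higher ones made up 18.3% in Med and 17.5% in Hi, and the 2-fold lower ones 16.3% and 15.4%. With centred columns 3 of the 25 were 2-fold lower in each, beside 6.83% and 6.02% of all genes, and with quantile normalization 6 in each, beside 15.5% and 14.7%. The tight junction genes Tjp1 (Ctrl 7.69, Med 10.16, Hi 10.29) and F11r (Ctrl 7.42, Med 10.25, Hi 10.13) were among the higher ones. Other tight junction genes, named after their values were seen, were among those 2-fold lower in both columns as deposited. They were Cldn3 (Ctrl 8.77, Med 7.15, Hi 7.37), Cldn7 (Ctrl 7.71, Med 5.89, Hi 6.10) and Tjp3 (Ctrl 7.96, Med 6.81, Hi 6.88). None of the 25 was 2-fold apart between Hi and Med. The protease inhibitor Spint2 was at 9.06 in Hi and 8.06 in Med, just under 2-fold higher, and the epithelial regulator Elf3 at 8.03 in Hi and 7.22 in Med. Klf5 (10.03 in Hi and 10.50 in Med) and Crb3 (6.48 in Hi and 6.83 in Med) were lower in Hi. Of 14 mesenchymal genes, N-cadherin (Cdh2) was the 1 that was 2-fold lower in Hi, at 8.92, than in Med, at 9.95. Set against Ctrl, 4 of the 14 passed 2-fold upward in Med and 3 in Hi, and 3 passed it downward in each, where 18.3% and 17.5% of all genes were higher and 16.3% and 15.4% lower. Fibronectin (Fn1, Ctrl 8.69, Med 13.45, Hi 13.32), S100a4 (Ctrl 7.56, Med 11.22, Hi 11.66) and Sparc (Ctrl 9.27, Med 11.45, Hi 11.45) were 2-fold higher than Ctrl in both. The lower ones as deposited, named after their values were seen, were smooth muscle actin (Acta2, Ctrl 9.67, Med 6.42, Hi 6.42), the collagen gene Col1a1 (Ctrl 8.76, Med 7.44, Hi 7.57) and the receptor gene Pdgfrb (Ctrl 7.34, Med 6.13, Hi 6.11). The regulators Zeb2 (Ctrl 9.07, Med 8.98, Hi 8.77) and Snai2 (Ctrl 7.50, Med 7.33, Hi 7.07) were under 2-fold.

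**Figure D5:**
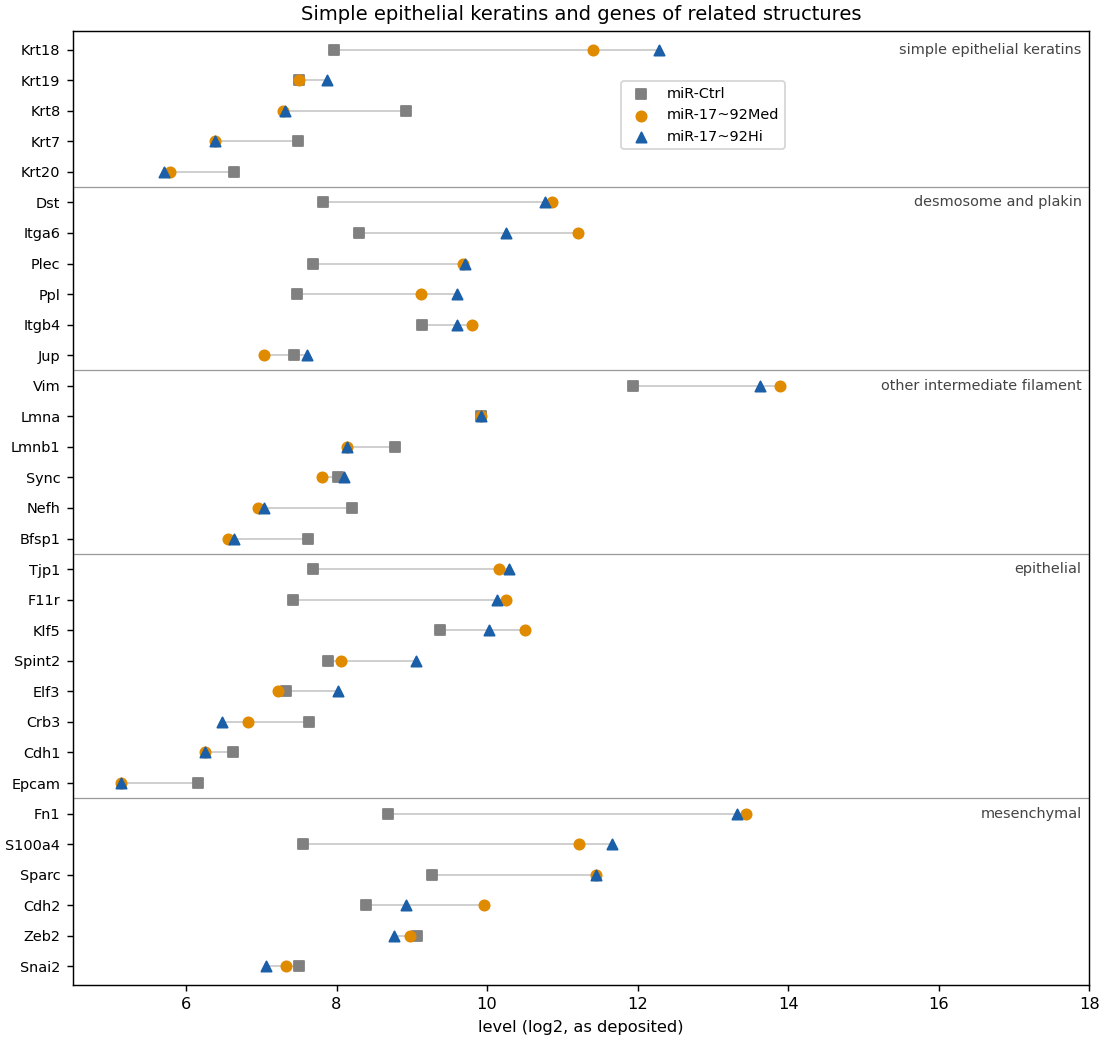
Deposited log2 levels (horizontal axis) in miR-Ctrl (squares), miR-17~92Med (circles) and miR-17~92Hi (triangles) for the simple epithelial keratins and for named genes of junctions, other intermediate filaments, epithelial and mesenchymal lists, joined by a grey line per gene. Krt18, Dst, Plec and Vim are higher in both miR-17~92 columns than in miR-Ctrl, Krt8 and Krt7 are lower, and Lmna has 1 value in all columns.

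Squamous genes that go with stratified keratins were mostly lower in Med and Hi than in Ctrl, as were intestinal genes and the Krtap genes. Of 20 measured members, 8 were 2-fold lower and none higher than Ctrl in Med and in Hi, with medians of -0.93 in both, where 16.3% of all genes were 2-fold lower in Med and 15.4% in Hi. With centred columns 4 were 2-fold lower in Med and 5 in Hi, beside 6.83% and 6.02% of all genes. With quantile normalization 7 and 6 were, beside 15.5% and 14.7% of all genes. The galectin Lgals7 was at 8.70 (Ctrl), 7.03 (Med) and 7.13 (Hi), and Cnfn at 8.63 (Ctrl), 7.53 (Med) and 7.53 (Hi). Suprabasin (Sbsn) was 2-fold lower as well, at 7.53 (Ctrl), 6.38 (Med) and 6.52 (Hi). Under 2-fold were Cdsn (Ctrl 7.76, Med 6.88, Hi 7.00), Sfn (Ctrl 7.56, Med 6.85, Hi 6.99) and Sprr1a (Ctrl 7.10, Med 6.29, Hi 6.18). None was 2-fold apart between Hi and Med, and the largest difference was 0.14.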

How the data were processed

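Per the labels' protocols, each hybridization used 100 ng of total RNA, amplified from random primers and labelled with biotin, on an Affymetrix array. Per the submitters' processing notes, the authors used Affymetrix Expression Console and GCRMA, named without role, order or version. The deposited values span 2.13 to 14.8 and were read as log2, a base inferred from that span. Any normalization or pooling of subclones took place before deposit.

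Of 35556 probe sets, the platform annotation names a single gene for 21789, several for 1621 (not used) and none for 12146. Symbols were updated through gene numbers to RefSeq's table of GRCm38.p6 (21698 matched). Probe sets of 1 gene were averaged, which gave 19938 genes. Log2 differences were counted at 1 (2-fold), with no filter on low values. Python 3.11.15, pandas 2.3.3 and numpy 2.4.6 were used, and the counting was tested on simulated data. Alternatives were columns centred on their medians, quantile normalization, a filter on mean level, a 1.5-fold threshold and stricter gauges.

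Members and lists were chosen with earlier results of these data known. Named were keratins above the receptor level in any column, those 2-fold apart between any columns and the simple, basal and wound groups (39 in all). Of each other list, up to 4 members with the largest difference between Hi and Med and up to 4 with the highest level in Hi were named, with Vim, Cdh1 and Epcam always and the intestinal markers as a check of the cell line. Krt81, Krt83 and Krt85 had no single-gene probe set and were not analysed here. The number of arrays, 1 column per group, limits the precision.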

Additional observations from a re-analysis of the deposited data

How the results depend on the processing

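The direction of Krt18 (higher) and Krt8 (lower) against Ctrl, each past 2-fold in Med and Hi, was kept under centring and quantile normalization. Use of the highest probe set could not change any keratin, since each is read by 1 probe set. Krt18 in Hi minus Med stayed between 0.86 and 0.89. Of the 39 named keratins, 10 in Med and 11 in Hi were no longer 2-fold from Ctrl with centred columns, and 5 and 6 with quantile normalization. Keratins 2-fold apart from Ctrl numbered 23 in Med and 22 in Hi as deposited, 13 and 11 with centred columns, and 19 and 17 with quantile normalization. They numbered 6 and 5 among the 9 past a filter on mean level, beside 43.6% and 41.8% of all genes past it. That filter uses the mean over all 3 columns, so that a gene high in Med and Hi passes more easily. At 1.5-fold the counts were 42 and 41, and with columns centred on receptor genes 10 and 8 were 2-fold apart. That last setting, chosen after seeing the data, gave medians of -0.45 and -0.42. Hi minus Med gave 1 keratin at 1.5-fold, and a median of 0.13 among the 9 past the filter. The gauge was passed by 10 (Ctrl), 7 (Med) and 7 (Hi) keratins at the 99th percentile of receptor genes, and 2, 1 and 1 by Krtap genes, as fewer pass a stricter gauge. With centred columns or quantile normalization, 30 keratins were lower in Hi than in Med, since identical values take a sign there. No paired analysis was possible because each group has 1 column. Signal near the receptor level limits what the differences of most keratins can show.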

Other observations

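Markers of other cell types were mostly lower in Med and Hi than in Ctrl, 8 of 9 immune and 5 of 5 endothelial ones, where 56.4% of all genes were lower in Med and 56.1% in Hi, and 50 of 52 keratins. Of the immune markers, the pan-leukocyte gene Ptprc was at 6.23 (Ctrl), 5.63 (Med) and 5.63 (Hi), under the 95th percentile of receptor genes in each column. The lysosomal Cd68 was the 1 immune marker 2-fold apart between Hi and Med, at 7.67 in Hi and 9.12 in Med, and at 7.18 in Ctrl. The T cell genes Cd3e (Ctrl 7.95, Med 6.61, Hi 6.73) and Cd8a (Ctrl 7.91, Med 6.34, Hi 6.35) were lower in Med and Hi than in Ctrl, as were Adgre1 (Ctrl 5.12, Med 4.63, Hi 4.70) and Ncr1 (Ctrl 5.36, Med 4.55, Hi 4.69). Of the endothelial markers, Vwf was at 7.89 (Ctrl), 6.80 (Med) and 6.89 (Hi), and Pecam1 at 7.28 (Ctrl), 6.24 (Med) and 6.24 (Hi), 2-fold lower in both. Cdh5 was at 7.34 (Ctrl), 6.43 (Med) and 6.40 (Hi), and Kdr at 6.57 (Ctrl), 5.76 (Med) and 5.49 (Hi). Above the receptor level in every column were the immune markers Cd3e, Cd8a and Cd68 and the endothelial markers Vwf, Pecam1 and Cdh5. The other immune and endothelial markers were under it throughout. Of 16 intestinal genes, 7 were 2-fold lower in Med and 6 in Hi than in Ctrl and none higher. Of all genes, 16.3% were 2-fold lower in Med and 15.4% in Hi. Among the lower intestinal genes was Tff3 (Ctrl 8.49, Med 7.00, Hi 7.20), while Gpa33 (Ctrl 7.61, Med 7.52, Hi 7.68) was close to Ctrl. With columns centred on their medians, 2 intestinal genes were 2-fold lower in Med and 1 in Hi, and no endothelial marker was in either. Of all genes, 6.83% and 6.02% were. With quantile normalization 3 intestinal genes were in Med and 4 in Hi, and 1 endothelial marker in each, beside 15.5% and 14.7% of all genes.

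Many deposited values recur exactly within a column. Of 35556 probe sets, 6061 (17.0%) in Ctrl, 12896 (36.3%) in Med and 13170 (37.0%) in Hi shared their value with another probe set. Among the 52 keratins this held for 9 in Ctrl, 18 in Med and 20 in Hi. Values also recur between genes and columns: Krt17 in Ctrl and Krt79 in Med and Hi held the same 6.86, and Krt26 in Med and Krt76 in Ctrl the same 5.34.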
